A study of Mus musculus with 67 samples.

Results

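The 10 imprinted growth genes H19, Igf2, Igf2r, Dlk1, Meg3, Peg3, Grb10, Mest, Plagl1 and Ndn were taken by name from a table of 29579 mouse genes, and all 10 were present. The table holds bulk RNA-seq of 49 small intestinal organoid cultures in 10 conditions and 18 libraries of isolated crypts in 9 groups, given as TPM, a transcript level scaled to gene length and to the library. The study asked how a culture medium named 8C, and in particular 2 compounds in it, valproic acid (VPA, an inhibitor of histone deacetylases) and EPZ6438 (which blocks EZH2, the enzyme that places the repressive H3K27 methyl mark), changes intestinal epithelium, and whether the same compounds act in irradiated mice.

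Organoids, which are epithelial structures grown in matrix from isolated crypts, came from mice 6 to 12 weeks old. ENR medium (7 libraries) held R-Spondin 1 at 500 ng/mL, noggin at 100 ng/mL and EGF at 50 ng/mL, and ENR+VE (3 libraries) was ENR with VPA and EPZ6438 at doses not given in the sources used here. 8C medium (7 libraries) held 500 µM VPA, 2 µM EPZ6438, 0.2 µM LDN193189 (a BMP receptor inhibitor), 0.1 µM GSK3 inhibitor XV, 1 µM Pexmetinib, the growth factors bFGF (20 ng/mL) and EGF (50 ng/mL), and conditioned medium with R-Spondin 1 at 10%. The other organoid groups lacked 1 or 2 of these components. 8C-V (6 libraries) lacked VPA and so kept EPZ6438, 8C-E (7 libraries) lacked EPZ6438 and so kept VPA, and 8C-VE (7 libraries) lacked both. 8C-GSK3i, 8C-Pex, 8C-bFGF and 8C-EGF (3 libraries each) lacked the component in their name. Crypts came from 8-week-old female C57BL/6 mice, 2 libraries a group. They were unirradiated (normal_crypt), or taken 1, 2, 3 or 5 days after 12 Gy of irradiation, from mice that received neither compound (IR) or that were gavaged with 40 mg/kg VPA and 0.6 mg/kg EPZ6438 (IR+VE). The labels do not say which libraries came from separate animals, so p-values measure the spread between libraries. The study gives fewer mice for its organoid expression maps than the larger organoid groups have libraries, so some libraries may share an animal, and p-values over them may be too small.

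An imprinted gene is expressed mainly from the chromosome inherited from 1 parent, because the parental copies carry different DNA methylation and histone marks at an imprinting control region. Many imprinted genes set fetal growth, are high before birth and fall in most tissues afterwards. A gene total such as the TPM used here does not separate the maternal from the paternal copy.

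The genes sit in several imprinted clusters of the mm10 genome. H19 (chr7:142575529-142578143, minus strand) and Igf2 (chr7:142650766-142666816, minus strand) are neighbours. Dlk1 (chr12:109452823-109463336, plus strand) and Meg3 (chr12:109541001-109571726, plus strand) form another pair. Peg3 (chr7:6703892-6730431, minus strand) and Ndn (chr7:62346569-62350262, plus strand) lie elsewhere on chromosome 7. Igf2r lies at chr17:12682406-12769664 (minus strand), Grb10 at chr11:11930508-12038683 (minus strand), Mest at chr6:30723547-30748465 (plus strand) and Plagl1 at chr10:13060504-13131694 (plus strand). H19 and Meg3 are annotated as long noncoding RNAs and the other 8 genes as protein coding. The library kit was not stated to keep the strand, so reads of Igf2r and its antisense RNA Airn, or of Mest and the antisense gene Copg2, cannot be told apart where they overlap.

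The promoters of 3 of the genes that rose together below are shown as examples. Each is the RefSeq window of 300 bases around a gene start (GRCm38.p6), read 5′ to 3′ on the gene's strand. Capitals mark TGCCGC on either strand (GCGGCA as printed here), the core motif bound, when methylated, by the imprint-protecting zinc finger protein ZFP57. The sequence table has 1 window for Peg3 and for Plagl1 and 2 for Grb10, of which the one with more CpG is shown.
Grb10, chr11:12037371-12037670, minus strand: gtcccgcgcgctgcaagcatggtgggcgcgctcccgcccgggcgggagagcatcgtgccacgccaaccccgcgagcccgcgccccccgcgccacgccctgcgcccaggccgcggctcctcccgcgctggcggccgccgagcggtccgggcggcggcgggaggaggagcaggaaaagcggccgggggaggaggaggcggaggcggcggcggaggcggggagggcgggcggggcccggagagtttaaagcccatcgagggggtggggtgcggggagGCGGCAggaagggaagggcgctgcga
Plagl1, chr10:13090582-13090881, plus strand: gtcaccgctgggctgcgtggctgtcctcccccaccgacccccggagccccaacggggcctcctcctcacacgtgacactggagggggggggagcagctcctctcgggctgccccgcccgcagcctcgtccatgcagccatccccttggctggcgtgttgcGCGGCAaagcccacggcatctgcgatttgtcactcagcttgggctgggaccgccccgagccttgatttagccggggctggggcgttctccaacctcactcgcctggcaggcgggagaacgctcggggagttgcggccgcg
Peg3, chr7:6730370-6730669, minus strand: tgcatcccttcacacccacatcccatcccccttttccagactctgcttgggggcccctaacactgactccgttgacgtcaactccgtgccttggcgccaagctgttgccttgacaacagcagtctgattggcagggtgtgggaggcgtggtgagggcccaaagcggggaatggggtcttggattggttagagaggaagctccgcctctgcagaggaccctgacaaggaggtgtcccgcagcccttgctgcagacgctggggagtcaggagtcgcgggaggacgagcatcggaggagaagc

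The Plagl1 window held 26 CpG dinucleotides and 70.7% G or C, and the Peg3 window 13 CpG and 61.3%, beside medians of 7 CpG and 52.7% over 32851 RefSeq mouse promoter windows. The Grb10 window shown was chosen for its 45 CpG (80% G or C), and the other Grb10 window held 9 CpG, 52.3% G or C and no TGCCGC. The Plagl1 window and the Grb10 window shown held 1 TGCCGC each and the Peg3 window held none, while 11.6% of all windows held at least 1. A match describes letters in the window and not a bound site. In all, 16 windows matched 9 of the 10 genes.

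H19 is also the host transcript of the microRNA gene Mir675, whose 2 mature forms lie in an exon of H19. They are shown because an H19 value counts the host RNA, and neither microRNA was measured in these libraries. Capitals mark the seed, bases 2 to 8, and the 2 seeds differ.
mmu-miR-675-5p, chr7:142577112-142577133, minus strand: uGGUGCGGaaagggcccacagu
mmu-miR-675-3p, chr7:142577078-142577099, minus strand: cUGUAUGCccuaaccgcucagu

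Values over the organoid libraries summed to 983801 to 988144 TPM and over the crypt libraries to 819346 to 910935 TPM, with mitochondrial genes taking 1.52% to 6.64% of the sum in organoids and 10.6% to 48.4% in crypts. Organoid and crypt levels were therefore not compared with each other. The depth of each library is unknown, because TPM keeps no read number. All 6 epithelial markers checked were at 1 TPM or more in ENR. The 8 fibroblast markers summed to at most 2.97 TPM in every organoid library. In bulk RNA, fewer cells expressing a gene and less RNA per cell cannot be told apart.

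In organoids the 10 genes spanned a wide range of levels. Igf2r, the receptor that carries IGF2 to the lysosome, averaged 65.9 TPM over the 49 libraries. H19 averaged 5.17 TPM, Grb10 4.87 TPM, Plagl1 4.86 TPM, Peg3 2.34 TPM and Mest 1.00 TPM. Dlk1 averaged 0.754 TPM, Igf2 0.140 TPM, Ndn 0.0659 TPM and Meg3 0.0289 TPM. Meg3 was listed at 0 in 25 of the 49 libraries, Ndn in 38 and Igf2 in 14. Meg3, the noncoding RNA of the Dlk1 cluster, was at 0 in every ENR and 8C-EGF library. Ndn, which encodes the growth suppressor necdin, reached its highest value, 0.827 TPM, in 1 library of 8C-EGF. The growth factor gene Igf2 was near 0 in the same organoids in which H19, its neighbour on chromosome 7, was detected.

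H19, Peg3, Grb10 and Plagl1, were higher in 8C than in ENR and higher in 8C than in 8C-VE. Igf2r and Mest differed in the same direction by less than 2-fold, a direction that quantile normalization turned for Mest against ENR (-0.17), and Igf2, Dlk1, Meg3 and Ndn were not called. Differences below are in log2(TPM + 1) from limma, with Benjamini-Hochberg adjusted p over all genes tested, and a gene was called when the adjusted p was under 0.05 and the difference at least 2-fold. This scale understates the change of genes near or below 1 TPM.

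H19, a noncoding RNA of the fetal growth program, was listed at 0 in 5 of the 7 ENR libraries and reached 0.515 TPM in the highest. In 8C its lowest, median and highest values were 2.05, 8.96 and 22.5 TPM. In 8C-VE they were 0, 0.0872 and 0.47 TPM. Every 8C library thus lay above every ENR and every 8C-VE library. The difference between 8C and ENR was 3.01 (SE 0.38, limma adjusted p = 9.81e-06), and between 8C and 8C-VE it was 2.94 (SE 0.38, limma adjusted p = 1.84e-05).

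Grb10, an adaptor that restrains signaling from the insulin and IGF1 receptors, ran from 0.499 to 0.883 TPM in ENR with a median of 0.759 TPM. In 8C it ran from 3.27 to 11.2 TPM with a median of 7.97 TPM. In 8C-VE it ran from 0.0637 to 1.15 TPM with a median of 0.391 TPM. Again the 8C libraries did not overlap with either group. The difference from ENR was 2.30 (SE 0.20, limma adjusted p = 1.09e-07) and from 8C-VE 2.56 (SE 0.23, limma adjusted p = 2.99e-07).

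Plagl1, a zinc finger transcription factor that acts on other imprinted genes, ran from 0.551 to 0.891 TPM in ENR (median 0.716 TPM), from 4.9 to 13.8 TPM in 8C (median 8.25 TPM) and from 0.703 to 1.99 TPM in 8C-VE (median 1.49 TPM). The 8C values lay above both other groups, while 8C-VE and ENR overlapped. The difference of 8C from ENR was 2.37 (SE 0.18, limma adjusted p = 2.8e-08) and from 8C-VE 1.86 (SE 0.20, limma adjusted p = 2.28e-06).

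Peg3, another zinc finger protein gene expressed from the paternal copy, was the most uneven among 8C cultures. In replicate order its 8C values were 13.5, 7.64, 19.1, 1.9, 2.18, 4.03 and 0.983 TPM. ENR libraries ran from 0.119 to 0.413 TPM and 8C-VE libraries from 0 to 0.0825 TPM. Replicates 1 to 3 of 8C were higher than replicates 4 to 7, and even the lowest of the 7 lay above all ENR and 8C-VE libraries. The difference from ENR was 2.23 (SE 0.43, limma adjusted p = 0.000604) and from 8C-VE 2.49 (SE 0.43, limma adjusted p = 0.000327). It was 3.31 within replicate numbers 1 to 3 and 1.65 within 4 to 6 for Peg3 against ENR, and both were called.

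Igf2r had a lowest, median and highest value of 30.5, 45 and 64.7 TPM in ENR, 42.7, 94.9 and 111 TPM in 8C, and 28.1, 50.8 and 64.6 TPM in 8C-VE. The groups overlapped through 8C replicate 2, the lowest of its group. The difference from ENR was 0.89 (SE 0.21, limma adjusted p = 0.00294), under 2-fold, and without 8C replicate 2 it was 1.05 and called for Igf2r. Within replicates 4 to 6 Igf2r differed by 1.40 from ENR and 1.16 from 8C-VE, both called, and within replicates 1 to 3 by 0.44 and 0.32, neither called. Mest, which encodes a hydrolase-like protein of fetal mesoderm, ran from 0.572 to 1.16 TPM in ENR, from 1.28 to 1.73 TPM in 8C and from 0.107 to 0.916 TPM in 8C-VE. The Mest values of 8C lay above those of both other groups, which overlapped with each other, and the difference of 8C was 0.45 (limma adjusted p = 0.00905) from ENR, where it turned to -0.17 under quantile normalization, and 0.71 (limma adjusted p = 0.00183) from 8C-VE, both under 2-fold on this scale. With pseudocount 0.1 the Mest difference from 8C-VE was 1.44 (limma adjusted p = 0.00494) and called.

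**Figure D1:**
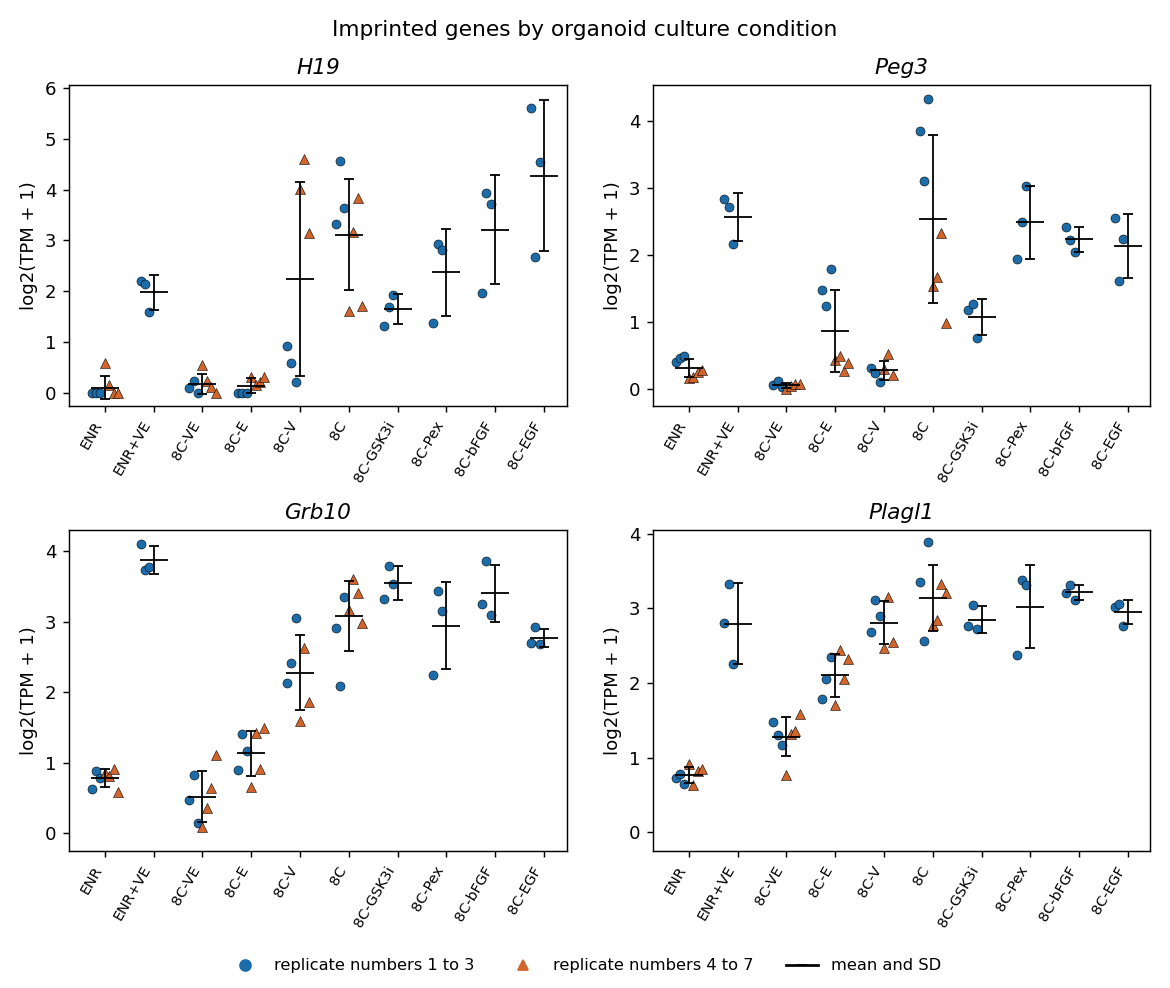
Level of H19, Peg3, Grb10 and Plagl1, as log2(TPM + 1), in every organoid library by culture condition, with blue circles for replicate numbers 1 to 3, orange triangles for 4 to 7, and the mean and SD of each condition. H19 runs from 2.05 to 22.5 TPM in 8C and reaches at most 0.515 TPM in ENR and 0.47 TPM in 8C-VE, and its circles and triangles separate in 8C-V.

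H19, Peg3, Grb10, Mest and Plagl1 averaged under 1 TPM in ENR, so they entered the test, which asked for a mean of at least 1 TPM over both groups, only through their 8C values. The count was therefore also made with no minimum. Then 4 of the 10 genes were called in 8C against ENR, all higher, where 9.86% of all genes were called. Of 8C against 8C-VE 4 of 10 were called, again higher, where 6.78% of all genes were called. At the minimum the percentages of genes called were 15.2% and 10.7%, and the called genes were the same 4. With no minimum, 6 of the 10 genes had every 8C library above every ENR library, as had 10.9% of all genes, and 5 of 10 had every 8C library above every 8C-VE library, as had 7.47% of all genes. The 5 were H19, Peg3, Grb10, Plagl1 and Mest. Meg3 was the further gene among the 6, near the floor at 0.0118 to 0.126 TPM in 8C and at 0 in every ENR library. All 4 called genes were called in both comparisons when any single library was left out.

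The comparison of 8C-VE with ENR asks what the rest of the 8C medium did without VPA and EPZ6438. None of the 10 genes was called by limma. The 2 genes tested were Plagl1, at 0.51 (limma adjusted p = 0.0275, under 2-fold), and Igf2r, at 0.13 (95% interval -0.28 to 0.54). Of these, 1 had an unadjusted p under 0.05, and 3.19% of all genes were called. With no minimum 0 of 9 genes were called, where 1.71% of all genes were. Peg3 then differed by -0.26 (limma adjusted p = 0.0116), under 2-fold on this scale. Its 8C-VE libraries, at 0 to 0.0825 TPM, all lay below its ENR libraries, at 0.119 to 0.413 TPM.

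Adding the 2 compounds to ENR raised the same genes, H19, Peg3, Grb10 and Plagl1. Grb10 measured 16.2, 12.3 and 12.8 TPM in the 3 ENR+VE libraries, Peg3 6.13, 5.62 and 3.49 TPM, and Plagl1 5.96, 9.07 and 3.76 TPM. All lay above every ENR library. The difference was 3.09 for Grb10 (SE 0.14, limma adjusted p = 4.86e-08), 2.26 for Peg3 (SE 0.16, limma adjusted p = 1.81e-06) and 2.03 for Plagl1 (SE 0.20, limma adjusted p = 2.21e-05). H19 measured 3.61, 3.44 and 2.01 TPM, below the minimum over both groups. With no minimum H19 differed by 1.87 (limma adjusted p = 2.7e-05).

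With no minimum, 4 of the 10 genes were called in ENR+VE against ENR, all higher, where 6.53% of all genes were called. The percentage at the minimum was 8.87%. Igf2r measured 74.6, 84.7 and 47.1 TPM in ENR+VE and differed by 0.58 (limma adjusted p = 0.146). Igf2 measured 0.793, 0.447 and 0.287 TPM in ENR+VE, against at most 0.0553 TPM in ENR. Its difference of 0.55 with no minimum had a limma adjusted p of 8.1e-04 and was under 2-fold. Dlk1, a transmembrane relative of Notch ligands, measured 0.698, 0.836 and 1.2 TPM in ENR+VE and also differed by less than 2-fold. Several marker sums of ENR+VE did not overlap with those of ENR. The enteric neuron and glia markers summed to 6.72 to 8.73 TPM against 2.56 to 4.02 TPM, with Sox10 at 0 in both groups, and the enteroendocrine markers to 1871 to 2132 TPM against 985 to 1720 TPM. Fibroblast markers summed to 0.798 to 1.16 TPM against 0.0928 to 0.341 TPM, and muscle markers to 1.42 to 1.95 TPM against at most 1.14 TPM. Of the 8 fibroblast markers, 4 were at 0 in ENR+VE (Col1a2, Col3a1, Lum and Thy1), of which Lum and Thy1 were also at 0 in ENR. Of the 5 muscle markers, 2 were at 0 in ENR+VE (Acta2 and Cnn1) and 1 averaged at least 1 TPM. The 6 epithelial markers were lower, at 6138 to 6353 TPM against 6854 to 10476 TPM. Their part in the ENR+VE differences was not tested.

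Whether the pair of compounds did the same in both media was tested as the difference between the 2 effects. None of the 5 genes tested was called by limma, 0 had an unadjusted p under 0.05, and 0.643% of all genes were called. With no minimum 1 of the 10, Igf2, was called at -0.41 (limma adjusted p = 0.0289), where 0.731% of all genes were called. The estimate for Grb10 was -0.54 (95% interval -1.17 to 0.10) and for Peg3 0.23 (95% interval -0.96 to 1.42), positive values meaning a larger effect in 8C. H19 stood at 1.06 (95% interval -0.01 to 2.13, limma adjusted p = 0.787). Within replicate numbers 1 to 3, H19 was at 1.74 (limma adjusted p = 0.027) and Peg3 at 1.58 (limma adjusted p = 0.037), and both were called. Calls over all genes were 582 within these numbers and 81 over all replicates.

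Removing 1 compound at a time gave different calls. Without VPA (8C-V), Peg3 was lower than in 8C. Without EPZ6438 (8C-E), H19, Peg3, Grb10 and Plagl1 were lower than in 8C. H19, Peg3, Grb10 and Plagl1 had medians between those of 8C-VE and 8C in both groups. The H19 median in 8C-E, 0.116 TPM, was near that in 8C-VE, 0.0872 TPM. Whether a gene's fall differed between the removal of VPA and that of EPZ6438 was not tested.

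Peg3 ran from 0.0735 to 0.435 TPM in the 6 libraries of 8C-V, with no overlap with 8C. The difference was -2.26 (SE 0.46, limma adjusted p = 0.00387), and Peg3 was the 1 of 7 tested genes called in 8C-V against 8C, where 4.09% of all genes were called lower. Peg3 reached the minimum through 8C. With no minimum it was the 1 of 10 called, where 3.16% of all genes were called. In 8C-E its values in replicate order were 1.78, 1.36, 2.47, 0.347, 0.408, 0.2 and 0.31 TPM. Replicates 1 to 3 of 8C-E, like those of 8C, lay above the rest, and the highest values of 8C-E overlapped the lowest of 8C. The difference of 8C-E from 8C was -1.68 (SE 0.47, limma adjusted p = 0.0403). That call was lost without any 1 of 8C replicates 1, 2, 3 and 6 or 8C-E replicates 2, 4, 5, 6 and 7, at -1.38 to -1.74 and adjusted p of 0.0551 to 0.0885 for Peg3.

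H19 measured 0, 0, 0, 0.25, 0.116, 0.155 and 0.24 TPM in 8C-E, all below the lowest 8C library. The difference was -2.97 (SE 0.38, limma adjusted p = 6e-05). In 8C-V it measured 0.896, 0.505, 0.159, 15.1, 23.3 and 7.82 TPM in replicate order, so replicates 1 to 3 were under 1 TPM and replicates 4 to 6 at the level of 8C. Over all replicates H19 in 8C-V differed from 8C by -0.87 (95% interval -2.42 to 0.68, limma adjusted p = 0.511) and from 8C-VE by 2.07 (SE 0.64, limma adjusted p = 0.0841).

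Split by number, H19 in 8C-V differed from 8C by -3.26 within replicates 1 to 3 (limma adjusted p = 0.0036) and by 1.05 within replicates 4 to 6 (limma adjusted p = 0.268). Within replicates 4 to 6 it was 3.61 above 8C-VE (limma adjusted p = 3.7e-04). Without 8C-V replicate 3 the difference of H19 from 8C-VE was 2.47 (limma adjusted p = 0.0256) and without replicate 2 it was 2.40 (limma adjusted p = 0.0469), both called. It was also called with pseudocount 0.1 (3.76, limma adjusted p = 0.0343) and with all 10 organoid groups in the fit (2.07, limma adjusted p = 0.00344). The sources used here do not say what the replicate numbers stand for, and the part of culture batch in this split was not tested.

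Dlk1 split the same way in 8C-V, at 0.26, 0.549 and 0.208 TPM in replicates 1 to 3 and 5.85, 3.69 and 2.77 TPM in replicates 4 to 6. It ran from 0 to 0.937 TPM in 8C and from 0 to 1.23 TPM in 8C-VE. Over all replicates Dlk1 differed from 8C-VE by 1.01 (limma adjusted p = 0.228). Within replicates 4 to 6 it was called against 8C-VE at 1.63 (limma adjusted p = 0.0103) and against 8C at 1.68 (limma adjusted p = 0.001). The 8C-V libraries numbered 4 to 6 therefore held H19 and Dlk1 at levels that those numbered 1 to 3 did not.

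Grb10 had a lowest, median and highest value of 2, 3.85 and 7.26 TPM in 8C-V and 0.576, 1.25 and 1.82 TPM in 8C-E. With EPZ6438 alone it was higher than with neither compound by 1.76 (SE 0.24, limma adjusted p = 0.000253), and in 8C-E it was lower than in 8C by a difference of -1.94 (SE 0.22, limma adjusted p = 1.89e-05). Against 8C, 8C-V stood at -0.80 (limma adjusted p = 0.0642). Within replicates 4 to 6 that Grb10 difference was -1.37 and called.

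Plagl1 ran from 4.54 to 7.89 TPM in 8C-V and from 2.25 to 4.42 TPM in 8C-E, both with no overlap with the 8C-VE values. The difference of 8C-V from 8C-VE was 1.53 (SE 0.16, limma adjusted p = 2.46e-05). That of 8C-E from 8C-VE was 0.82 (SE 0.16, limma adjusted p = 0.00273), under 2-fold, and with pseudocount 0.1 it was 1.16 and called for Plagl1. Against 8C, 8C-V stood at -0.33 (limma adjusted p = 0.364) and 8C-E fell by 1.04 (SE 0.20, limma adjusted p = 0.00279). Without 8C-E replicate 1 or 4, or without 8C replicate 3, the Plagl1 difference of 8C-E was -0.91 to -0.99, under 2-fold. The Plagl1 call was also lost within replicates 1 to 3 (-1.20, limma adjusted p = 0.0859), within replicates 4 to 6 (-0.92) and under quantile normalization (-0.85).

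In counts, 2 of 5 tested genes (Grb10 and Plagl1) were called higher in 8C-V than in 8C-VE, where 2.96% of all genes were, and with no minimum 2 of 9 were called where 2% of all genes were. In 8C-E against 8C-VE 0 of 2 were called by limma, with 2 at an unadjusted p under 0.05, where 4.18% of all genes were called. With no minimum 0 of 10 were called there, where 2.5% of all genes were. Peg3 then differed by 0.81 (limma adjusted p = 0.0349) and Grb10 by 0.61 (limma adjusted p = 0.0564), both under 2-fold on this scale. Every 8C-E library of Peg3 (0.2 to 2.47 TPM) lay above every 8C-VE library (0 to 0.0825 TPM). In 8C-E against 8C 4 of 6 were called lower (H19, Peg3, Grb10 and Plagl1), where 3.97% of all genes were. With no minimum 3 of 10 were called lower, without Peg3, where 2.64% of all genes were called in either direction (523 lower and 27 higher). Without 8C replicate 3 or without 8C-E replicate 4 the called genes were H19 and Grb10. These 4 comparisons share libraries of 8C, 8C-VE, 8C-V and 8C-E.

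The interaction of VPA and EPZ6438, the excess of both together over the sum of each alone, was called by limma for 0 of 5 genes tested, with 1 at an unadjusted p under 0.05, where 0.653% of all genes were called. It was 1.45 for Peg3 (95% interval 0.37 to 2.53, limma adjusted p = 0.56), 0.90 for H19 (95% interval -0.66 to 2.47), 0.19 for Grb10 (95% interval -0.49 to 0.86) and -0.49 for Plagl1 (95% interval -1.02 to 0.04). Within replicate numbers 1 to 3 the interaction was called for H19, at 3.37 (limma adjusted p = 8.1e-04), and for Peg3, at 2.11 (limma adjusted p = 0.0084). Within numbers 4 to 6 the H19 interaction was -0.98 (limma adjusted p = 0.507). Over all genes the interaction was called for 364 within numbers 1 to 3, 485 within numbers 4 to 6 and 82 over all replicates.

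**Figure D2:**
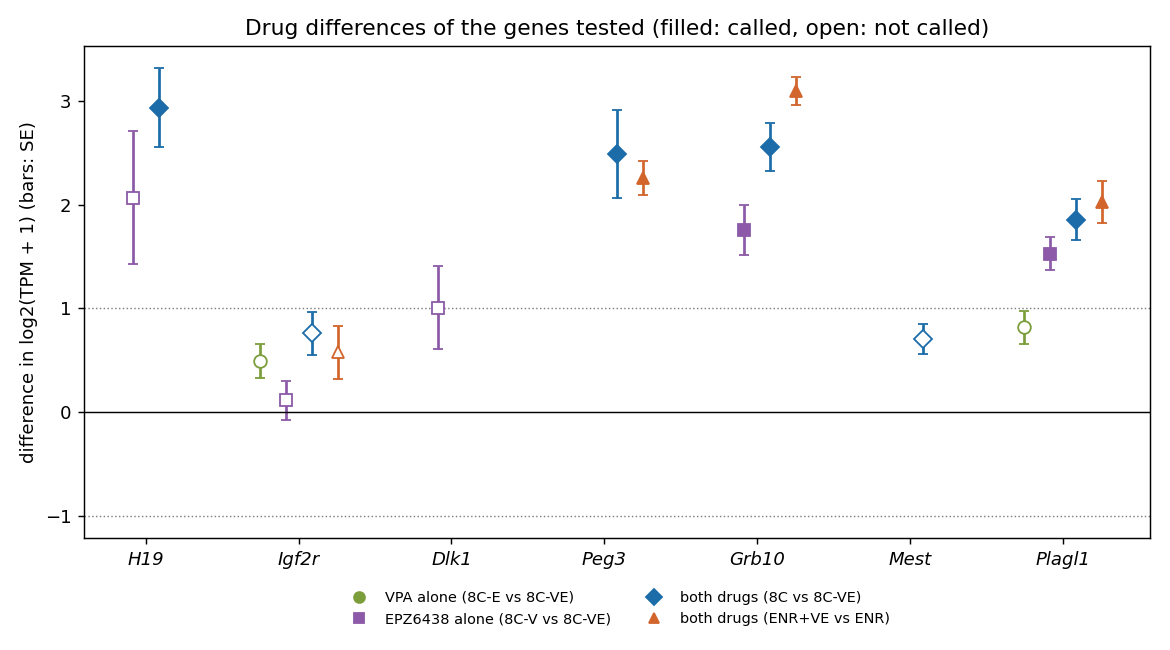
Difference in log2(TPM + 1) of each tested gene for VPA alone (8C-E minus 8C-VE), EPZ6438 alone (8C-V minus 8C-VE) and both in 8C (8C minus 8C-VE) or in ENR (ENR+VE minus ENR), with bars for the SE, filled symbols for called differences and dotted lines at 2-fold. Plagl1 steps from 0.82 with VPA alone to 1.53 with EPZ6438 alone and 1.86 with both, and genes below the minimum level in a comparison have no symbol there.

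Igf2r and Mest had smaller differences. Igf2r ran from 40.5 to 69.7 TPM in 8C-V and from 52.9 to 82.7 TPM in 8C-E. Its difference from 8C was -0.64 in 8C-V (limma adjusted p = 0.0519) and -0.27 in 8C-E (95% interval -0.65 to 0.12). Mest ran from 0.298 to 0.734 TPM in 8C-V, all below 8C, and differed by -0.71 (limma adjusted p = 0.00245), under 2-fold. With pseudocount 0.1 this Mest difference was -1.37 (limma adjusted p = 0.00303) and called. In 8C-E Mest ran from 0.376 to 1.09 TPM, also all below 8C, and differed by -0.47 (limma adjusted p = 0.0502).

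Markers of other cell types moved with some of these groups. The 6 enteric neuron and glia markers summed to 6.97 to 27.6 TPM in 8C, 2.56 to 4.02 TPM in ENR, 2.25 to 4.58 TPM in 8C-VE, 5.38 to 9.80 TPM in 8C-V and 3.11 to 8.65 TPM in 8C-E. Ret was the marker averaging 1 TPM or more, except in 8C-V, where 2 markers did. The glial gene Sox10 was at 0 in every 8C library. The 8 fibroblast markers summed to 0.724 to 2.97 TPM in 8C, 0.0928 to 0.341 TPM in ENR, 0.0670 to 0.553 TPM in 8C-VE, 0.233 to 0.487 TPM in 8C-V and 0.499 to 1.81 TPM in 8C-E. The 5 endothelial markers, of which Esam was at 1 TPM or more, summed to 13.1 to 23.5 TPM in 8C, 5.89 to 7.91 TPM in ENR, 5.24 to 13.9 TPM in 8C-VE, 4.90 to 8.99 TPM in 8C-V and 13.8 to 24.4 TPM in 8C-E, with Cdh5 and Kdr at 0 in every 8C and ENR library. The 5 muscle markers summed to 0.187 to 4.00 TPM in 8C, at most 1.14 TPM in ENR and at most 0.711 TPM in 8C-VE. Enteroendocrine markers, of which 7 of 8 were at 1 TPM or more, summed to 684 to 2158 TPM in 8C, 329 to 738 TPM in 8C-E and 1225 to 2538 TPM in 8C-V. Their part in the results above was not tested.

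Leaving out other components of 8C gave few calls, for these genes as for all genes. All 4 of these comparisons share the 7 libraries of 8C. Without the GSK3 inhibitor H19 measured 1.51, 2.24 and 2.79 TPM, and without EGF it measured 47.8, 5.36 and 22.3 TPM, in each case with overlap with 8C. The differences were -1.47 (95% interval -2.67 to -0.26, limma adjusted p = 0.763) and 1.16 (95% interval -0.34 to 2.66, limma adjusted p = 0.508).

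Of 6 genes tested without the GSK3 inhibitor, limma called 0, with 2 at an unadjusted p under 0.05, and 0% of all genes were called. Without bFGF it called 0 of 6, with 0 at an unadjusted p under 0.05, where 0.00779% of all genes were called, and without EGF 0 of 6, with 1 at an unadjusted p under 0.05, where 0.451% were. Against 8C replicates 1 to 3 alone, H19 and Peg3 were called without the GSK3 inhibitor at -2.19 (limma adjusted p = 0.0067) and -2.69 (limma adjusted p = 0.003). Peg3 measured 1.27, 1.41 and 0.696 TPM there, against 0.983 to 4.03 TPM in 8C replicates 4 to 7. Against 8C replicates 1 to 3 Peg3 was also called without bFGF, at -1.53 (limma adjusted p = 0.022), and without EGF, at -1.63 (limma adjusted p = 0.046). Calls over all genes rose there as well, from 0 to 904 without the GSK3 inhibitor. They rose from 1 to 705 without bFGF and from 58 to 453 without EGF. The calls of H19 and Peg3 thus came with more calls across all genes. Against 8C replicates 4 to 6 alone, a choice made after seeing the data, none was called. In that order, 7, 1 and 341 of all genes were called there.

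Without Pexmetinib, Dlk1 measured 5.39, 2.31 and 2.36 TPM, above every 8C library. It differed by 1.55 (SE 0.27, limma adjusted p = 0.027) and was the 1 of 7 tested genes called, where 0.482% of all genes were. Dlk1 reached the minimum through 8C-Pex. With no minimum it was the 1 of 10 called, where 0.309% of all genes were. The Dlk1 call was lost without any 1 of 8C replicates 1, 3, 5 and 6, at differences of 1.54 to 1.55 and limma adjusted p of 0.0524 to 0.0603. It was also lost without 8C-Pex replicate 2 (1.71, limma adjusted p = 0.0585) or 3 (1.70, limma adjusted p = 0.108), and without 8C-Pex replicate 1 Dlk1 was below the minimum and not tested. Against 8C replicates 4 to 6 alone it was 1.42 (limma adjusted p = 0.057). The enteroendocrine markers summed to 2371 to 3309 TPM in 8C-Pex, above every 8C library, and their part in the Dlk1 difference was not tested.

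**Figure D3:**
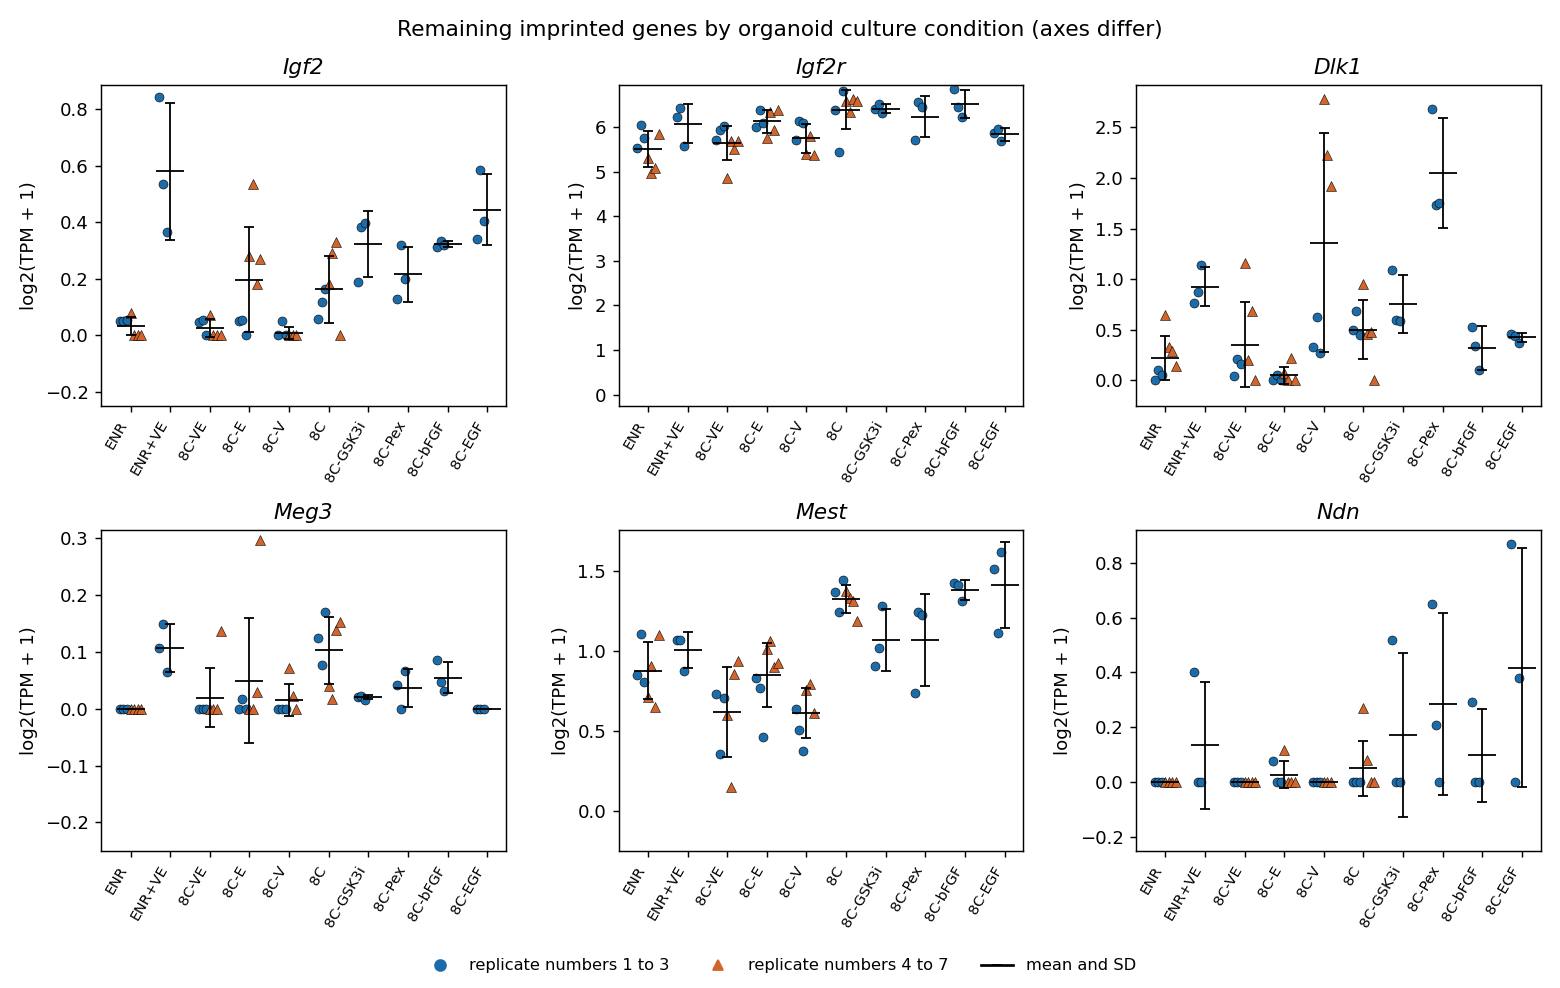
Level of Igf2, Igf2r, Dlk1, Meg3, Mest and Ndn, as log2(TPM + 1) on an axis of its own for each gene, in every organoid library by culture condition, with symbols by replicate number and the mean and SD of each condition. Dlk1 stands highest in 8C-Pex and in replicates 4 to 6 of 8C-V, and Igf2 reaches 0.793 TPM in ENR+VE.

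Ordered by the mean log2(TPM + 1) of each condition, H19 showed a gap without overlap between neighbouring conditions at 1 place, between 8C-GSK3i and 8C-VE. For Grb10 the gap lay between 8C-V and 8C-E, for Plagl1 between 8C-E and 8C-VE, and for Peg3 between 8C-EGF and 8C-GSK3i. The other neighbours in these orders overlapped, and Igf2r, Mest, Dlk1, Igf2, Meg3 and Ndn had no gap.

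The wider gene lists place these genes among others, and their counts are given with no minimum. Of 20 IGF pathway genes, 9 were called higher in 8C than in ENR, where 7.8% of all genes were called higher. They included the receptor gene Igf1r (1.36), the binding protein genes Igfbp2 (4.28), Igfbp3 (3.69) and Igfbp5 (4.33), the pappalysin inhibitor Stc1 (2.80) and Igf2bp3 (1.35), whose protein binds Igf2 and H19 RNA. Igfbp1, Igfbp4 and Igfbp7 were also called. Against 8C-VE 7 of 20 were called higher, where 5.82% of all genes were, and in ENR+VE against ENR 6 of 20, where 6.08% were. The IGF pathway list had median differences of 0.97, 0.48 and 0.38 in these 3 comparisons, beside medians over all genes of 0.05, 0.03 and 0.05.

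Of genes in the same imprinted clusters as the 10, 4 of 30 were called higher in 8C than in ENR (Phlda2, Slc22a3, Phactr2 and Peg12), where 7.8% of all genes were. Against 8C-VE 3 of 29 were called (Cdkn1c, Mkrn3 and Peg12), where 5.82% were, and in ENR+VE 6 of 28 (Cdkn1c, Phlda2, Slc22a3, Mkrn3, Peg12 and Atp10a), where 6.08% were. Peg12 differed by 3.08 between 8C and ENR. Of other imprinted genes 4 of 24 were called higher in 8C than in ENR, namely Peg10 (2.01), Sgce (3.09), Asb4 (1.54) and Sfmbt2 (1.97), the same 4 and Tfpi2 of 24 against 8C-VE, and the same 4 and Slc38a4 of 23 in ENR+VE. Among genes that keep imprints, 1 of 16 was called in 8C against ENR and against 8C-VE, a share near that of all genes, and 0 of 16 in ENR+VE by limma. The called gene, Zfp57, averaged 4.02 TPM in 8C and 0.0591 TPM in ENR.

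In crypts 8 of the 10 genes averaged under 1 TPM, and 2 were tested, Igf2 at a mean of 1.18 TPM and Igf2r at 6.02 TPM. H19 averaged 0.502 TPM, Meg3 0.388 TPM, Grb10 0.179 TPM, Mest 0.159 TPM, Peg3 and Plagl1 0.104 TPM each, Dlk1 0.0995 TPM and Ndn 0.0365 TPM. With no minimum, none of H19, Peg3, Grb10 and Plagl1 was called in a crypt comparison. The lowest limma adjusted p among them was 0.0257, for Grb10 with the compounds over the mean of days, at a difference of 0.18.

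Igf2, the fetal growth factor gene, measured 0.271 and 0.786 TPM in normal crypts. It was 0.216 and 0.35 TPM on day 1 after irradiation, 2.56 and 1.91 TPM on day 2, 0.738 and 0.386 TPM on day 3 and 0.85 and 0.323 TPM on day 5. Day 2 lay above the normal crypts, and the other days overlapped with them. The difference on day 2 was 1.10 (SE 0.30, limma adjusted p = 0.00712) and called, where 30.8% of all genes were called. Igf2 reached the minimum through the day 2 groups. With no minimum it was the 1 of 10 called, where 14.9% of all genes were called. With pseudocount 0.1 the Igf2 difference was 2.01 (limma adjusted p = 0.0509) and not called. Without normal_crypt replicate 1 it was 0.85 (limma adjusted p = 0.0582) and without IR_day2 replicate 1 it was 0.95 (limma adjusted p = 0.0542), so that the Igf2 call was lost. From normal crypts to day 2 the summed fibroblast markers went from 7.30 to 10.6 TPM down to 1.90 to 4.63 TPM, immune markers from 23.8 to 27.6 TPM down to 9.64 to 11.9 TPM, and the mitochondrial share from 12.7% to 18.1% up to 32.6% to 39.9%. With mitochondrial genes removed the Igf2 difference was 1.60 (limma adjusted p = 0.00538) and called. The part of the markers in the Igf2 difference was not tested.

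With the compounds Igf2 measured 1.05 and 0.735 TPM on day 1, 4.01 and 5.96 TPM on day 2, 0.191 and 0.0793 TPM on day 3 and 0.722 and 0 TPM on day 5. Both libraries were above the IR libraries on days 1 and 2 and below them on day 3. The difference on day 2 was 0.88 (SE 0.30, limma adjusted p = 0.0558) and on day 3 -0.45 (limma adjusted p = 0.209). Under quantile normalization the day 3 difference of Igf2 was -1.27 (limma adjusted p = 0.00939) and called. From IR_day2 to IR+VE_day2 the summed muscle markers went from 0.155 to 0.374 TPM up to 1.06 to 4.60 TPM, enteric neuron and glia markers from 0.793 to 1.10 TPM up to 2.56 to 4.09 TPM, immune markers from 9.64 to 11.9 TPM up to 16.6 to 24.3 TPM, and fibroblast markers from 1.90 to 4.63 TPM down to 1.05 to 1.60 TPM. Their part in the Igf2 values was not tested.

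Igf2r measured 3.54 and 5.51 TPM in normal crypts, 5.55 and 3.21 TPM on day 1, 4.26 and 2.38 TPM on day 2, 0.665 and 1.06 TPM on day 3 and 10.7 and 8.64 TPM on day 5 after irradiation. Day 3 lay below and day 5 above normal crypts. The difference on day 3 was -1.55 (SE 0.29, limma adjusted p = 0.000285), the 1 of 2 tested genes called, where 53.8% of all genes were called and the median of all genes was -1.03. With no minimum it was the 1 of 10 called, where 27% were. From normal crypts to day 3 the summed immune markers went from 23.8 to 27.6 TPM down to 5.72 to 8.89 TPM, fibroblast markers from 7.30 to 10.6 TPM down to 1.53 to 2.37 TPM, and the mitochondrial share from 12.7% to 18.1% up to 37.9% to 48.4%. Endothelial markers went from 2.33 to 3.99 TPM down to 1.78 to 1.92 TPM, enteroendocrine markers from 422 to 523 TPM down to 226 to 403 TPM, enteric neuron and glia markers from 0.346 to 0.793 TPM up to 1.17 to 1.60 TPM, and muscle markers from 0.207 to 0.490 TPM up to 0.564 to 0.608 TPM. With mitochondrial genes removed the Igf2r difference was -1.32 (limma adjusted p = 0.0069) and called, and the call was lost under quantile normalization (-0.46, limma adjusted p = 0.0824) and under 75th percentile scaling (-0.81, under 2-fold). The part of the markers in the Igf2r difference was not tested. On day 5 it was 0.97 (limma adjusted p = 0.0245), under 2-fold, where 15.8% of all genes were called, and without normal_crypt replicate 2 the Igf2r difference was 1.23 and called. From normal crypts to day 5 immune markers fell to 3.64 to 4.36 TPM and fibroblast markers to 0.560 to 0.571 TPM. Endothelial markers fell to 1.28 to 1.68 TPM and enteroendocrine markers to 151 to 221 TPM. Enteric neuron and glia markers rose to 1.63 to 2.47 TPM. Their part in the day 5 difference was not tested. On day 1, 0 of 2 were called by limma, with 0 at an unadjusted p under 0.05, where 6.92% of all genes were called.

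With the compounds Igf2r measured 8.8 and 6.43 TPM on day 1, 7.17 and 8.05 TPM on day 2, 6.26 and 4.64 TPM on day 3 and 11.4 and 10 TPM on day 5. It was above the IR libraries on days 1, 2 and 3 and overlapped with them on day 5. The difference was 1.03 on day 2 (SE 0.29, limma adjusted p = 0.0381), where 8.38% of all genes were called (898 higher and 7 lower) and the median of all genes was 0.42, and 1.79 on day 3 (SE 0.29, limma adjusted p = 0.000445), where 31.7% were called (3418 higher and 6 lower) and the median of all genes was 0.69. Under quantile normalization the calls over all genes were 0 on day 2, and 758 higher and 366 lower on day 3. With no minimum 0 of 10 genes were called on day 2, where Igf2r had a limma adjusted p of 0.0881 and 0.0906% of all genes were called, and on day 3 Igf2r was the 1 of 10 called, where 15% were. The day 2 call was lost for Igf2r under quantile normalization (0.46) and without IR_day2 replicate 2 (0.71), IR+VE_day2 replicate 1 (1.10, limma adjusted p = 0.121) or IR+VE_day2 replicate 2 (0.95). Under quantile normalization the day 3 difference with the compounds was 0.93 for Igf2r, under 2-fold. From IR_day2 to IR+VE_day2 the epithelial markers went from 4121 to 4342 TPM up to 5542 to 6012 TPM and the enteroendocrine markers from 476 to 541 TPM up to 612 to 714 TPM, beside the muscle, enteric, immune and fibroblast sums given with Igf2. From IR_day3 to IR+VE_day3 the summed immune markers went from 5.72 to 8.89 TPM up to 13.4 to 16.5 TPM, fibroblast markers from 1.53 to 2.37 TPM up to 4.11 to 8.89 TPM, and epithelial markers from 2351 to 3573 TPM up to 4914 to 5148 TPM. Muscle markers went from 0.564 to 0.608 TPM up to 1.42 to 2.21 TPM, enteric neuron and glia markers from 1.17 to 1.60 TPM up to 1.96 to 2.41 TPM, and endothelial markers from 1.78 to 1.92 TPM up to 2.44 to 4.10 TPM. The part of these markers in the Igf2r differences was not tested.

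H19 measured 1.48 and 1.11 TPM in IR+VE_day3 and 0.395 and 0.47 TPM in IR_day3, and with no minimum it differed by 0.68 (limma adjusted p = 0.052).

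On day 1 and on day 5 limma called 0 of 2 genes with the compounds, with 1 and 0 at an unadjusted p under 0.05, where 0.00926% and 0.0185% of all genes were called. Averaged over the 4 days, Igf2r differed by 0.91 (SE 0.15, limma adjusted p = 0.000808), under 2-fold, and Igf2 by 0.18 (limma adjusted p = 0.304), where 3.55% of all genes were called. Both sets of comparisons reuse the IR libraries. The mitochondrial share was 26.3% and 29.2% in IR+VE_day2 against 32.6% and 39.9% in IR_day2, without overlap, and 25.4% and 41.5% in IR+VE_day3 against 37.9% and 48.4% in IR_day3, with overlap. With mitochondrial genes removed Igf2r differed by 0.91 (limma adjusted p = 0.188) on day 2, not called, and by 1.91 (limma adjusted p = 0.00239) on day 3, called.

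**Figure D4:**
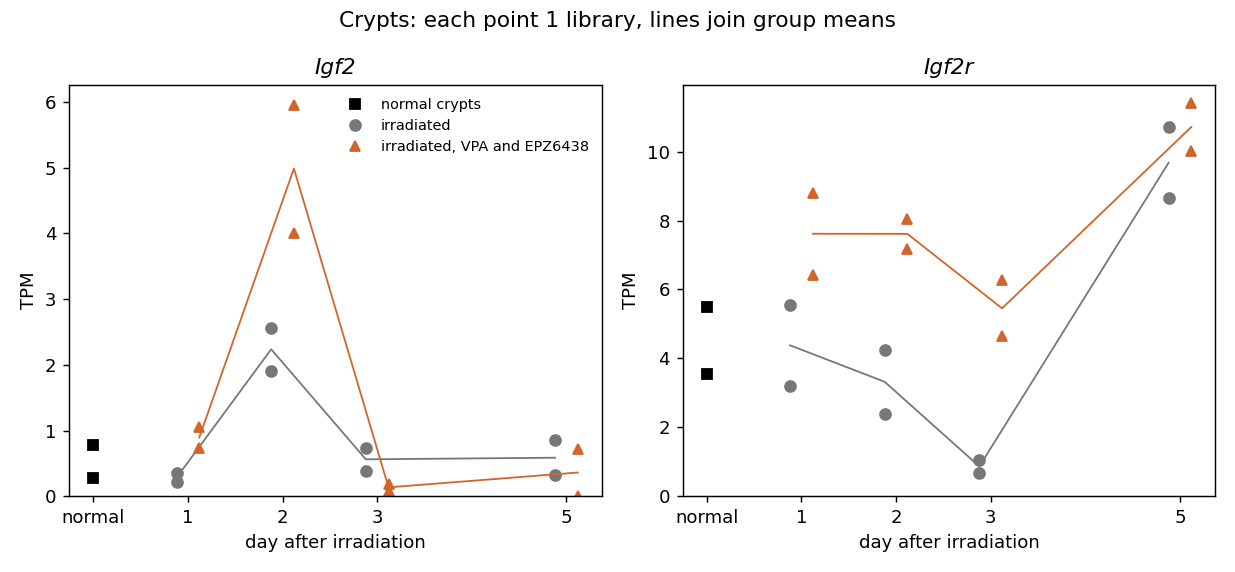
TPM of Igf2 and Igf2r in the 18 crypt libraries by day after irradiation, with squares for normal crypts, circles for irradiated mice, triangles for irradiated mice given both compounds, and lines joining group means. Igf2 peaks on day 2, at 1.91 and 2.56 TPM without and 4.01 and 5.96 TPM with the compounds, and Igf2r is lowest on day 3 without them, at 0.665 and 1.06 TPM.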

How the data were processed

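TPM values were deposited by the authors, whose notes name Trimmomatic 0.39, STAR 2.7.3a, featureCounts and the build mm10. How counts became TPM is not given in the sources used here. The 10 genes and all lists were chosen with earlier results of these data known. Named genes were all 10, and of the lists those called in 8C against ENR, 8C against 8C-VE or ENR+VE against ENR. Differences in log2(TPM + 1) were tested with limma 3.58.1 in R 4.3.3 (eBayes with trend and robust variance) on genes averaging 1 TPM or more, p-values adjusted by Benjamini-Hochberg over all genes tested. Organoid fits held only the groups compared. All 9 crypt groups shared 1 fit, since each had 2 libraries. The code was tested on simulated data. Of the cell type markers, 1 is not reported here and was left out of the sums. Alternatives were pseudocount 0.1, a minimum of 5 TPM or none, no minimum fold, quantile normalization, 75th percentile scaling, removal of mitochondrial genes, other fits, replicate sets, a replicate block and leaving out each library.

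Replicate numbers were taken to pair the samples where every same-numbered pair of libraries deviated together with a correlation over 0.1. This held for 8C-VE against ENR (lowest 0.313), 8C-E against 8C-VE (0.647), 8C-V against 8C-VE (0.690) and 8C-V against 8C (0.106). The pairing comes from these correlations and not from the labels, and the block changed no call of the 10 genes there.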

Additional observations from a re-analysis of the deposited data

Results flagged for a closer look

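The 42.7 TPM of Igf2r in 8C replicate 2 stood apart from the other 6 libraries of its group, with a gap of 0.651 of the group's range in log2(TPM + 1). About 1 in 20 groups would pass the cutoff for flagging by chance, and 17 pairs of gene and group were checked.

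The effect of the compounds on Igf2 in irradiated crypts differed in direction between days, with every drug-treated library above the untreated ones on day 2 and below them on day 3. The test of the difference between days, over all 4 days, gave F = 4.65 and a limma adjusted p of 0.109 for Igf2. For Igf2r the same test gave F = 5.49 and a limma adjusted p of 0.087. Of 10802 genes, 189 passed it.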

How the results depend on the processing

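The 4 calls of 8C against ENR and of 8C against 8C-VE held under every alternative but a minimum of 5 TPM, which removed H19, Peg3, Grb10 and Plagl1 from the test and left 0 called there and in 8C-V against 8C-VE, 8C-V against 8C, ENR+VE against ENR, 8C-Pex against 8C and day 2 after irradiation, and 1 in 8C-E against 8C. Without a minimum fold, 1 gene was called in 8C-VE against ENR, 8C-E against 8C-VE, day 5 after irradiation and the mean of days with the compounds, and 2 in 8C-V against 8C. With pseudocount 0.1 the counts were 1 in 8C-E against 8C-VE, 2 (Peg3 and Mest) in 8C-V against 8C, 0 in 8C-Pex against 8C and on day 2 after irradiation, and 1 on day 5 and over the mean of days. Mest was then also called in 8C against 8C-VE, and H19 in 8C-V against 8C-VE. Quantile normalization gave 2 in 8C-E against 8C, and, like 75th percentile scaling, 0 on day 3 after irradiation and 0 on day 2 with the compounds. On day 3 with the compounds quantile normalization called Igf2 and no longer Igf2r, at an unchanged count of 1. Removing mitochondrial genes or the minimum also gave 0 on day 2 with the compounds. With no minimum, 1 (Igf2) was called between media. With 8C replicates 4 to 6 alone (chosen after seeing the data) 8C-Pex against 8C had 0. It also had 0 with all 10 groups in the fit, where Dlk1 averaged 0.754 TPM and so was not tested.

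Replicate numbers 1 to 3 gave 2 called in 8C-V against 8C, in 8C-GSK3i, in the interaction and between media, and 1 each in 8C-bFGF and 8C-EGF. Numbers 4 to 6 gave 5 (with Igf2r) in 8C against ENR and against 8C-VE, 4 in 8C-V against 8C-VE and 3 in 8C-V against 8C. Either set gave 3 in 8C-E against 8C, without Plagl1. With the replicate number as a block, 2 were called in 8C-GSK3i and 1 in 8C-bFGF, where the numbers did not pair the samples and all genes called rose from 0 to 725 and from 1 to 522. The replicate block changed no other call count of the 10 genes. A crossed block on days 1 and 2 after irradiation, chosen after seeing the data, gave 0 and 1, as without it. Leaving out single libraries gave 4 to 5 calls in 8C against ENR, 2 to 4 in 8C-E against 8C, 0 to 1 in 8C-Pex, and 0 to 1 on days 2 and 5 after irradiation and on day 2 with the compounds.

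Directions turned for Mest in 8C against ENR (quantile -0.17), H19 in 8C-V against 8C (numbers 4 to 6, 1.05), Peg3 in 8C-Pex (0.035 with pseudocount 0.1, 0.036 with quantile, 0.65 with 8C replicates 4 to 6), H19 in 8C-bFGF (-0.62 with the block and with numbers 1 to 3), and Peg3 with 8C replicates 4 to 6 in 8C-bFGF (0.39) and 8C-EGF (0.30). In the interaction they turned for Grb10 (-0.51 with pseudocount 0.1, -0.42 with numbers 1 to 3), Igf2r (-0.033, numbers 1 to 3) and H19 (-0.98, numbers 4 to 6). In crypts Igf2r turned on day 1 (0.33 quantile, 0.28 with 75th percentile scaling, 0.20 without mitochondrial genes) and day 2 (0.33 and 0.13), Igf2 on day 5 (-0.049 with 75th percentile scaling), and Igf2 over the mean of days with the compounds (-0.034 with pseudocount 0.1, -0.23 quantile, -0.026 with 75th percentile scaling). Single libraries turned H19 in 8C-bFGF (-0.26 to 0.72), Igf2 on days 1 (-0.48 to 0.012), 3 (-0.20 to 0.29) and 5 (-0.19 to 0.30) after irradiation and on day 5 with the compounds (-0.65 to 0.14), Igf2r in 8C-V against 8C-VE (-0.013 to 0.19), between media (-0.064 to 0.35), on day 1 after irradiation (-0.37 to 0.27) and on day 5 with the compounds (-0.0017 to 0.28), Peg3 in 8C-Pex (-0.32 to 0.24) and between media (-0.064 to 0.49), and Plagl1 between media (-0.44 to 0.10). The causes were not tested.

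Quantile normalization moved the calls over all genes from 1509 higher and 419 lower to 1048 and 662 in 8C against ENR, from 1144 and 204 to 807 and 356 in 8C against 8C-VE, from 1002 and 91 to 717 and 294 in ENR+VE against ENR, from 141 and 520 to 197 and 368 in 8C-V against 8C, and on day 3 after irradiation from 276 and 5538 to 1198 and 1321, with the median of all genes moving from -1.03 to 0.03. On days 1, 2 and 5 after irradiation the calls moved from 155 and 592 to 317 and 192, from 492 and 2830 to 1035 and 839, and from 1105 and 606 to 584 and 678. With the compounds they moved on day 2 from 898 and 7 to 0 and 0 (as with 75th percentile scaling and without mitochondrial genes), and on day 3 from 3418 and 6 to 758 and 366 (1680 and 221 with 75th percentile scaling). TPM gives no read depth, so the precision of values under 1 TPM is unknown.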

Other observations

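Over the means of the 10 organoid conditions, the genes most like H19 were Cpq (Pearson r = 0.977), Sh3kbp1 (0.976) and Podxl2 (0.976). Those most like Peg3 were AW551984 (0.966), Peg12 (0.963) and Chst7 (0.956). Those most like Grb10 were Kcnj8 (0.982), Mgll (0.973) and Hoxa7 (0.968), and those most like Plagl1 were Gpc3 (0.993), Bex1 (0.992) and Amotl1 (0.992). The 10 points share medium components, and these genes were picked as the highest of all genes for each. Over the 49 single libraries r was lower for every pair, from 0.835 for H19 and Cpq to 0.958 for Plagl1 and Amotl1. For H19 the order there was reversed, with Sh3kbp1 at 0.850 and Podxl2 at 0.887.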
